A study of Mus musculus with 6 samples.

Results

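The genes examined are those for the nuclear-encoded parts of the mitochondrial respiratory chain and ATP synthase, the machinery of oxidative phosphorylation. They were chosen by name alone: every gene whose symbol begins with Nduf, Uqcr or Atp5, the genes Sdha, Sdhb, Sdhc and Sdhd, and the cytochrome c oxidase genes whose symbols begin with Cox4 to Cox8. Of the 23398 genes measured, 92 met this rule after 5 names marked as pseudogenes were dropped: 39 of complex I, 8 complex I assembly factors named Ndufaf, 4 of complex II, 8 of complex III, 16 of complex IV and 17 of complex V. By symbol, 83 of them are subunits and are called structural subunits below. The 8 Ndufaf proteins help to build complex I without staying in it, and Atp5s, known as factor B, is not a structural subunit. In the GENCODE annotation 3 of the 83, Ndufb4c, Ndufs6b and Cox6c2, are processed pseudogenes, kept here by their names. Reads that they share with their parent genes Ndufb4, Ndufs6 and Cox6c make their values uncertain.

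RNA was sequenced from mouse bone marrow derived dendritic cells, antigen-presenting cells of the immune system grown in culture from marrow precursors. One group of 3 libraries came from cells given Ca(OH)2 nanoparticles (calcium hydroxide particles) and the other group of 3 libraries from cells given vehicle, both for 12 hours in the same medium. The labels give no strain, sex, age, dose or particle size, and they do not say whether the libraries of a group came from separate cultures or animals, so p-values measure only the spread between these samples. The design asks which transcripts differ between cells with and without the particles.

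As background, complexes I and II pass electrons from NADH and from succinate to ubiquinone, complex III passes them on to cytochrome c, and complex IV gives them to oxygen. Complexes I, III and IV pump protons out of the mitochondrial matrix, and complex V, the ATP synthase, lets them flow back while it makes ATP. Most subunits are made from nuclear genes, and a few at the core of complexes I, III, IV and V are made from mitochondrial DNA. Dendritic cells at rest are known to rely on oxidative phosphorylation, and after strong activation they are known to shift towards glycolysis.

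Expression is given in FPKM, fragments per kilobase of exon scaled to library size, so levels can be compared between genes. The deposited values allowed 17299319 to 21988929 reads per library to be recovered. Nanoparticle library 1 stood apart. Across tested genes its log2 levels correlated with those of nanoparticle libraries 2 and 3 at 0.942 and 0.928, against 0.990 between libraries 2 and 3 and 0.993 to 0.994 among vehicle libraries. Counts of members and the log2 changes of most of the named genes are therefore given with and without it. The deposited scaling is also not a scaling to library totals: the reads behind 1 unit of scale were 0.873 to 0.889 in vehicle and 1.09 to 1.14 in nanoparticle libraries, and rescaling to read totals lowered the median log2 change over tested genes from -0.0010 to -0.28. Of the dendritic cell markers, Cd74, H2-Ab1 and Itgax were abundant in all 6 libraries and Flt3 was at or near 0. Of the 13 that could be tested, Irf8 and Ccr7 were higher with nanoparticles and Zbtb46, Ciita, Cd209a and Clec10a lower (limma, adjusted p under 0.05 with all libraries, where 17.0% of all tested genes were higher and 16.2% lower). Ccr7 rose from 1.75 to 2.62 FPKM in vehicle to 105 to 124 FPKM, and Cd209a fell from 5.17 to 6.21 FPKM to 0.0764 FPKM or below. The 14 dendritic markers summed to 7251 to 7728 FPKM in vehicle and to 3916, 8412 and 9181 FPKM in nanoparticle libraries 1 to 3. The 10 macrophage markers summed to 832 to 952 FPKM in vehicle and 608 to 674 FPKM with nanoparticles, with Cd163 at or near 0. Within this list Adgre1 and Fcgr1 were higher, and C1qa, C1qb, C1qc and Mrc1 lower. The 9 neutrophil markers summed to 35.1 to 39.8 FPKM and 50.8 to 125 FPKM, with the defining Ly6g, Elane and Mpo at or near 0. S100a8 made up most of that sum and was higher, at 50.1, 90.3 and 109 FPKM with nanoparticles against 33.4 to 36.0 FPKM in vehicle. S100a9 was at 0.352, 13.2 and 10.2 FPKM against 0.962 to 1.65 FPKM, and Camp and Ngp were likewise highest in nanoparticle libraries 2 and 3, at 1.83 to 4.30 FPKM. The markers of mast cells and basophils summed to 1.35 to 2.56 FPKM and 1.17 to 2.40 FPKM, and those of T, B and erythroid cells stayed below 1 FPKM in sum. The part of these markers in the results below was not tested. In bulk RNA, fewer cells of a type and less RNA per cell cannot be told apart.

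Promoters of these genes are shown first because most of the members varied together between libraries. Known regulators of such genes include NRF1, the GA-binding protein (an ETS factor) and YY1. RefSeq promoter windows on GRCm38.p6, 250 bases before to 50 bases after a start, were found for 72 of the 92 members, 77 windows in all. The NRF1 core motif GCGCATGCG was present on either strand in 10 member windows (13.0%), against 1.75% of all 32851 windows. The ETS motif CCGGAAG was present in 18 (23.4%, against 8.86%) and the YY1 motif AAGATGGCG in 8 (10.4%, against 1.4%). At least 1 of these motifs was present in 30 member windows (39.0%), against 11.4% of all windows. A match describes letters in a window and not a bound site. The 4 stretches below are the 100 bases before the RefSeq start, written 5′ to 3′ on the strand of the gene, with the motif in capitals. They represent complexes I, III and IV and lie at chr17:56717662-56717761 (plus strand, Ndufa11), chr4:116075071-116075170 (minus strand, Uqcrh), chr10:80406822-80406921 (minus strand, Uqcr11) and chr5:115348959-115349058 (minus strand, Cox6a1). In Ndufa11 the capitals hold the NRF1 core on both strands, overlapping. In the other genes they hold the ETS motif on the strand shown for Uqcr11 and on the opposite strand for Uqcrh and Cox6a1.
Ndufa11: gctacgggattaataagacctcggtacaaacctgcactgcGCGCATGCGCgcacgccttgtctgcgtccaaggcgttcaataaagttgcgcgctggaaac
Uqcrh: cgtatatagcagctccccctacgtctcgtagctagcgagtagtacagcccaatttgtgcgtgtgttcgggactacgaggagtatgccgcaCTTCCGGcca
Uqcr11: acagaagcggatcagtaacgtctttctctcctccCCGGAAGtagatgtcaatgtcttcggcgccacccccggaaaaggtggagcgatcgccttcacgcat
Cox6a1: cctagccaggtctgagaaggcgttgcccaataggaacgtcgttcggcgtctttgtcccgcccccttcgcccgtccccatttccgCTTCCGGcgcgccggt

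These 4 genes were chosen after their values were seen, from 15 tested members with such a motif in the 100 bases before the start, and they had similar profiles over the libraries. Ndufa11, an accessory subunit in the membrane arm of complex I, was at 30.9, 31.6 and 27.7 FPKM in vehicle and at 22.5, 52.0 and 59.8 FPKM in nanoparticle libraries 1 to 3. Uqcrh, the hinge protein of complex III, was at 64.8, 68.3 and 65.5 FPKM in vehicle and 46.5, 94.7 and 116 FPKM with nanoparticles. Uqcr11, a small subunit of complex III, was at 75.6, 78.9 and 74.6 FPKM and at 34.8, 96.5 and 124 FPKM. In each of them nanoparticle library 1 lay below and libraries 2 and 3 above all vehicle libraries, and Cox6a1 did the same. So did 13 of the 15 genes with a motif there, and the 2 others were the assembly factors Ndufaf1 and Ndufaf8, which carry the ETS motif. Over the 88 members tested, with or without a motif, the count was 65 (73.9%), against 10.8% of all tested genes. Of the 8 assembly factors, with or without a motif, 0 had this pattern. Whether a motif goes with the profile was not tested.

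With all 6 libraries, 2 of the 88 members that passed the filter on low values were higher with nanoparticles (limma, Benjamini-Hochberg adjusted p under 0.05 over 10682 genes), where 17.0% of all tested genes were. None was lower, where 16.2% of all tested genes were. At an unadjusted p under 0.05, 7 members were higher (22.4% of all tested genes) and 0 lower (22.0%). The groups did not overlap in 5 members that were higher (25.9% of all tested genes), Ndufb4c, Ndufs4, Ndufaf6, Uqcrfs1 and Cox6a2, and in 3 that were lower (26.2%), Ndufs1, Ndufaf7 and Cox6b2. The 2 called members were Ndufb4c and Cox6a2, and the structural subunits alone gave the same counts. The filter, at least 1 FPKM in at least 3 libraries, left out Ndufb2, Ndufs6b, Cox4i2 and Cox6c2. Over the 88 the median log2 change was 0.19 on the log2(FPKM + 1) scale, against -0.0010 for all tested genes.

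Nanoparticle library 1 and its 2 companions lay on opposite sides of vehicle for most of the members. In library 1, 78 of the 88 lay below every vehicle library (46.7% of all tested genes did) and 6 above (42.8%). In library 2, 76 lay above every vehicle library (45.3%) and 7 below (42.8%), and in library 3, 79 lay above (46.2%) and 4 below (43.4%). The crossed pattern, library 1 below and libraries 2 and 3 above all vehicle libraries, was present in 65 members, 73.9% of the 88, and in 10.8% of all tested genes. The opposite crossing was present in 0 members and in 8.23% of all tested genes. The median difference of the members from the vehicle mean was -0.52 in library 1, 0.45 in library 2 and 0.66 in library 3 on the log2 scale, where that of all tested genes was -0.03, 0.02 and 0.02. Library 1 held the lowest value of its group for 83 members (46.3% of all tested genes). Between the other libraries, library 3 was above library 2 for 76 members (50.4%).

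**Figure D1:**
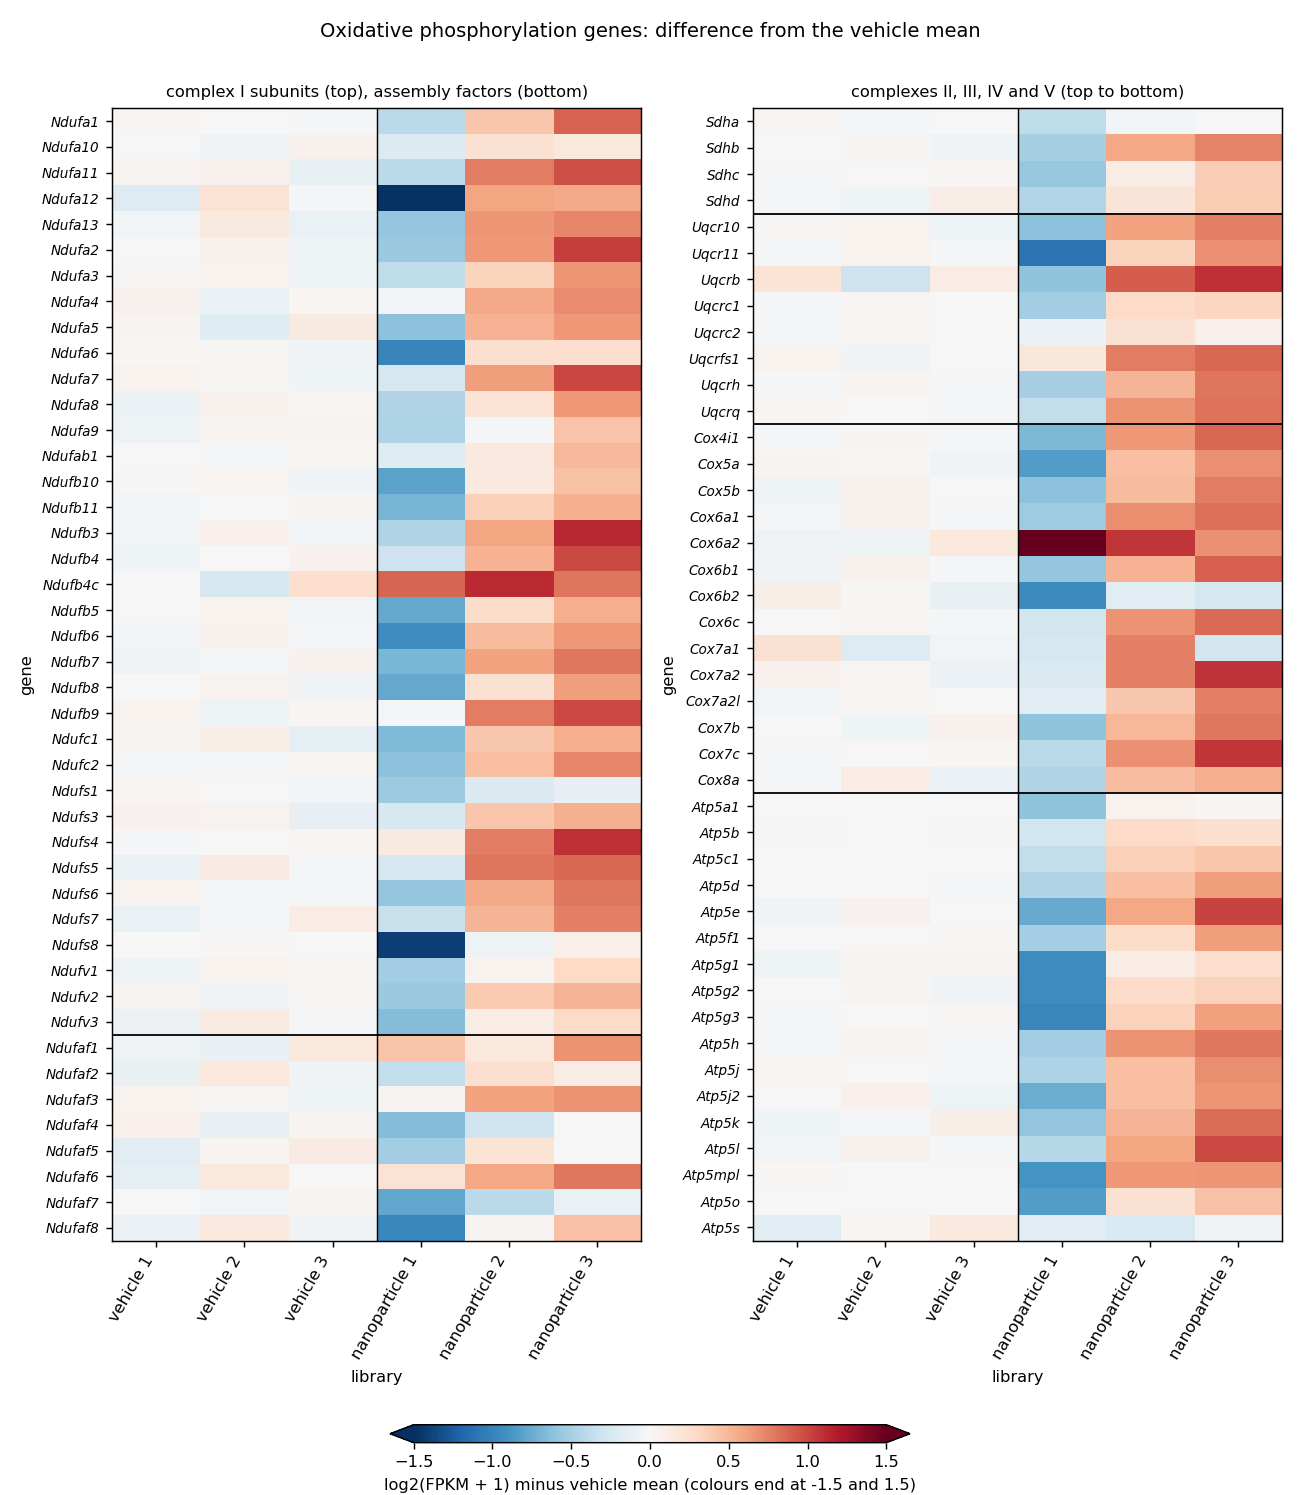
Difference of the tested genes, 1 of them not drawn, from their vehicle mean in log2(FPKM + 1), with genes in rows, the 6 libraries in columns and colours that end at -1.5 and 1.5. The column of nanoparticle library 1 is mostly blue and those of libraries 2 and 3 mostly red, with 65 of 88 genes below all vehicle libraries in the first and above them in the others.

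The vehicle libraries agreed closely for these genes, and the nanoparticle libraries did not. The highest vehicle library exceeded the lowest by a median of 1.09-fold over the tested members, against 1.12-fold for all tested genes. Within the nanoparticle group the median span was 2.41-fold, against 1.53-fold for all tested genes. Spans within the nanoparticle group ran from 1.24-fold for Atp5s to 5.55-fold for Ndufa12, an accessory subunit of the matrix arm of complex I. Ndufa12 was at 7.39, 10.1 and 8.36 FPKM in vehicle and at 2.42, 13.4 and 13.2 FPKM in nanoparticle libraries 1 to 3. Its groups overlapped, since its lowest and its highest values were both from nanoparticle libraries.

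**Figure D2:**
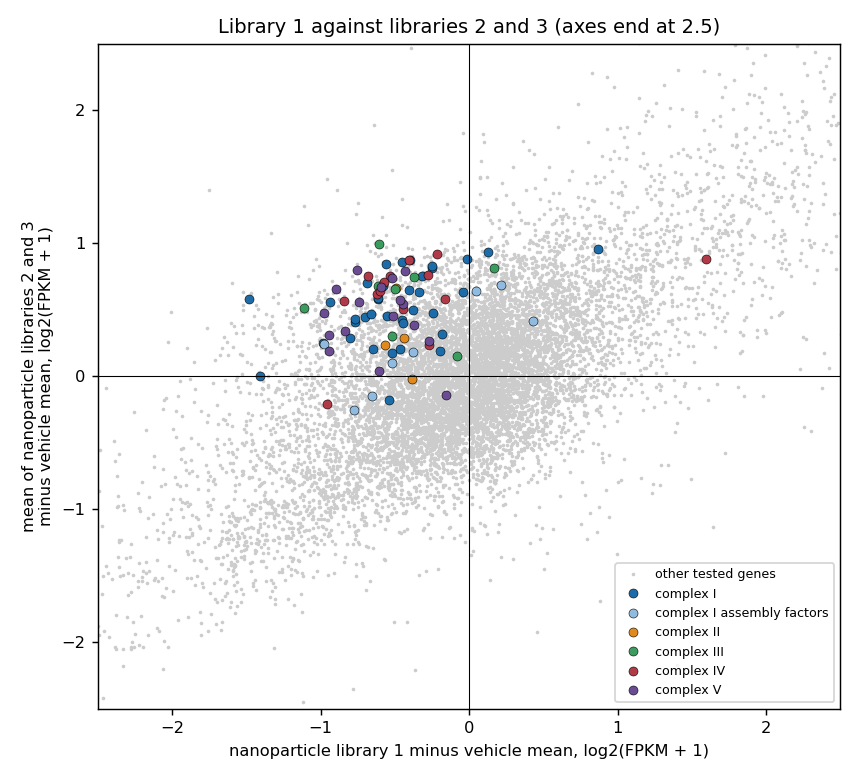
Each point is a tested gene, with the difference of nanoparticle library 1 from the vehicle mean on the x axis and the mean difference of libraries 2 and 3 on the y axis, both in log2(FPKM + 1). Most coloured points, the oxidative phosphorylation genes, lie in the upper left corner, away from the diagonal band of other genes.

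Without nanoparticle library 1, which leaves 2 libraries in that group, 70 of the 88 members were higher with nanoparticles, where 34.3% of all tested genes were, and 0 were lower, where 30.5% of all tested genes were. The median log2 change of the members was then 0.56, against 0.02 for all tested genes. The 2 genes called with all 6 libraries were called in this fit as well. When libraries were scaled to their read totals instead, all 6 libraries gave 2 members higher (10.4% of all tested genes) and 5 lower (33.8%). The 5 were Ndufs1, Ndufaf4, Ndufaf7, Sdha and Cox6b2, chosen here after their values were seen. With read totals and without library 1 together, 42 members were higher (18.4%) and 9 lower (51.1%). The members' median log2 change was -0.15 with read totals and 0.20 with read totals and without library 1. Relative to the median of all tested genes, these values lay 0.13 and 0.47 above it, against 0.19 and 0.54 on the deposited scale.

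**Figure D3:**
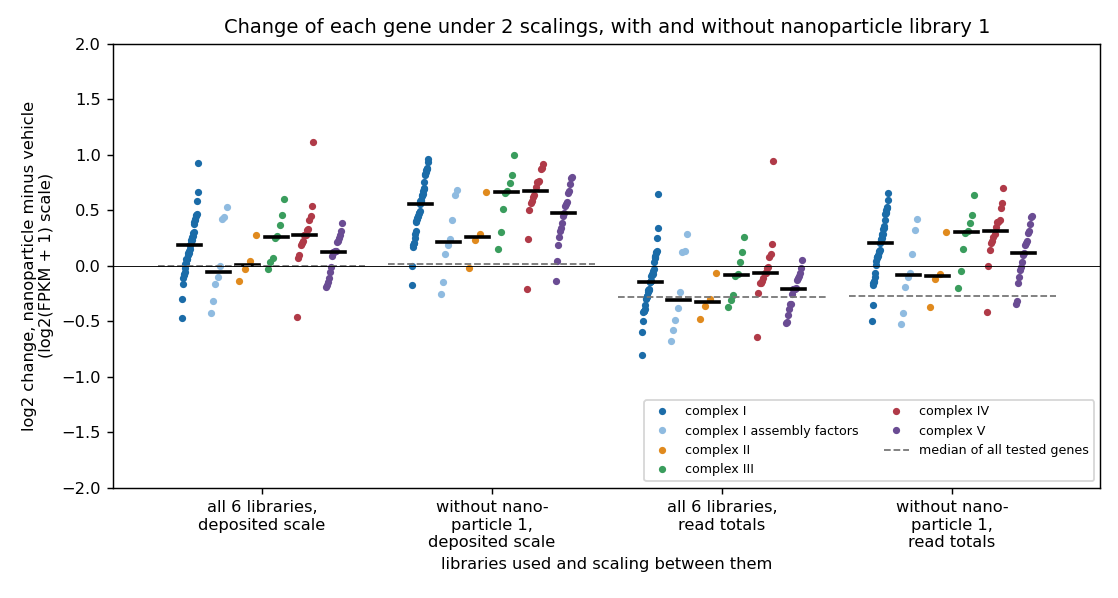
Fitted log2 change of each tested gene (dots, by complex) with its median per complex (black bars) and the median of all tested genes (dashed), for all 6 libraries or without nanoparticle library 1, on the deposited scale or scaled to read totals. The medians of complexes I, III, IV and V move from 0.18, 0.26, 0.28 and 0.13 with all libraries to 0.56, 0.67, 0.68 and 0.48 without library 1.

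Summed over the 83 structural subunits, transcript levels were 4616, 4735 and 4598 FPKM in the vehicle libraries and 3254, 6525 and 7540 FPKM in nanoparticle libraries 1 to 3. Nanoparticle library 1 thus held 0.700 of the vehicle mean, and libraries 2 and 3 held 1.40 and 1.62 times that mean. With scaling to read totals these ratios were 0.564, 1.10 and 1.25. The order of the complexes by ratio in library 3 was complex IV (1.74), III (1.70), I (1.66), V (1.43) and II (1.30), while in library 1 the ratios were 0.670 for complex V, 0.701 for I, 0.708 for IV, 0.721 for III and 0.726 for II.

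**Figure D4:**
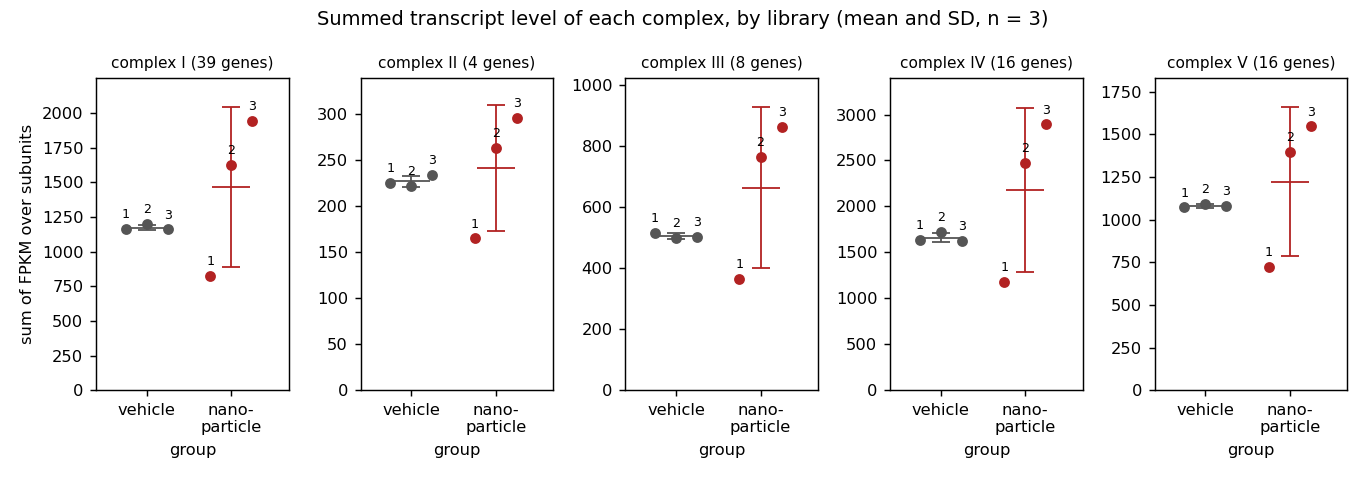
Sum of FPKM over the structural subunits of each complex in each library, with the library number above each point and the group mean and SD (n = 3). On this deposited scale, in all 5 complexes the vehicle libraries lie close together, nanoparticle library 1 lies below them and libraries 2 and 3 above.

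In complex I, 1 of 37 tested genes was higher with all 6 libraries and 32 without nanoparticle library 1, 0 were lower in either fit, and 28 were crossed. Counts by complex, here and below, stand beside 17.0% of all tested genes higher and 16.2% lower with all libraries. Without library 1 these shares were 34.3% and 30.5%, and 10.8% of all tested genes were crossed. Ndufa1, a small accessory subunit of the membrane arm and the most abundant complex I transcript per length at a vehicle mean of 96.9 FPKM, was at 98.9, 96.3 and 95.6 FPKM in vehicle. It was at 72.9, 130 and 180 FPKM in nanoparticle libraries 1 to 3. Its groups overlapped, and its log2 change was 0.30 (SE 0.315, limma adjusted p = 0.516) with all libraries and 0.65 (adjusted p = 0.0045) without library 1.

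Among the conserved core subunits of complex I, which pass electrons from NADH to ubiquinone, some stayed close to or below vehicle in nanoparticle libraries 2 and 3, and were chosen after their values were seen. Ndufs1, the largest iron-sulfur subunit of the core, was at 0.872 of its vehicle mean in libraries 2 and 3. Its values were 8.17, 8.05 and 7.78 FPKM in vehicle and 5.18, 6.72 and 7.24 FPKM with nanoparticles, so that the groups did not overlap. Its log2 change was -0.30 (SE 0.130, limma adjusted p = 0.130), or -0.17 (adjusted p = 0.0559) without library 1, and with read totals it was -0.60 (adjusted p = 0.0086). Ndufs8, a core subunit near the site of ubiquinone reduction, was at 33.2, 33.6 and 33.1 FPKM in vehicle and at 11.9, 31.5 and 35.1 FPKM with nanoparticles. Nanoparticle library 1 held 0.357 of its vehicle mean, and the other nanoparticle libraries lay close to vehicle on either side.

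Other complex I genes differed from the crossed pattern in the other direction, and were chosen after their values were seen. Ndufs4, an accessory subunit needed for a stable NADH-oxidising module, was at 13.3, 13.7 and 13.9 FPKM in vehicle and at 15.0, 24.0 and 30.4 FPKM with nanoparticles. All nanoparticle values lay above all vehicle values, and the log2 change was 0.67 (SE 0.242, limma adjusted p = 0.0796). Without library 1 it was 0.94 and past the threshold (adjusted p = 3.1e-04). Ndufb9, an accessory subunit of the membrane arm, was at 29.8, 27.1 and 29.3 FPKM in vehicle and at 28.4, 49.8 and 57.9 FPKM with nanoparticles, so library 1 lay within the vehicle range. Ndufa4, named for complex I but since found associated with complex IV, had the same arrangement, with 29.4, 26.2 and 28.7 FPKM in vehicle and 27.3, 42.0 and 46.4 FPKM with nanoparticles. The log2 change of Ndufa4 was 0.41 (SE 0.205, limma adjusted p = 0.178), and 0.63 (adjusted p = 4.4e-04) without library 1.

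Ndufb4c was the only complex I name that passed with all libraries. It is a single-exon copy of Ndufb4, annotated as a processed pseudogene of 390 bases at chr15:73809507-73809896, minus strand (GRCm38, GENCODE M21). It held 3.22, 2.59 and 4.05 FPKM in vehicle and 6.75, 8.21 and 6.39 FPKM with nanoparticles, resting on 25, 20 and 33 recovered reads and on 43, 53 and 48 reads. The groups did not overlap, and the log2 change was 0.93 (SE 0.160, limma adjusted p = 0.0059), or 0.96 (adjusted p = 0.0024) without library 1. Its parent gene Ndufb4, an accessory subunit of the membrane arm, was at 12.4, 13.0 and 13.7 FPKM in vehicle and 10.3, 19.2 and 26.9 FPKM with nanoparticles, and had the crossed pattern that the copy lacked.

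The 8 Ndufaf assembly factors were less abundant per length, with a median vehicle level of 3.82 FPKM against 28.2 FPKM for complex I subunits. None passed the threshold with all libraries, 2 did without nanoparticle library 1 (Ndufaf3 and Ndufaf6, both higher, where 34.3% of all tested genes were), and 0 of 8 were crossed, where 10.8% of all tested genes were. Their median log2 change was -0.05 with all libraries and 0.21 without library 1. Ndufaf8, a partner of Ndufaf5 and the most abundant of them, was at 15.6, 18.6 and 16.0 FPKM in vehicle and at 8.004, 17.2 and 23.0 FPKM with nanoparticles. Library 1 lay below its vehicle range, library 2 within it and library 3 above it, and the log2 change was -0.16 (SE 0.350, limma adjusted p = 0.757), or 0.24 (adjusted p = 0.146) without library 1.

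Among the other assembly factors, chosen after their values were seen, some were higher and some lower in all nanoparticle libraries. Ndufaf6, which acts early in the assembly of complex I, was at 1.67, 2.29 and 1.94 FPKM in vehicle and at 2.43, 3.43 and 4.12 FPKM with nanoparticles, without overlap (log2 change 0.53, SE 0.172, limma adjusted p = 0.0576, and 0.69 with adjusted p = 0.0026 without library 1). Ndufaf7, a mitochondrial methyltransferase needed to assemble complex I, was at 3.31, 3.20 and 3.45 FPKM in vehicle and at 1.52, 2.26 and 3.04 FPKM with nanoparticles, also without overlap (log2 change -0.43, SE 0.178, limma adjusted p = 0.115, and -0.25 with adjusted p = 0.0817 without library 1). Ndufaf7 was the 1 member called lower when nanoparticle library 3 was left out, with a log2 change of -0.59, where 14.9% of all tested genes were lower. Ndufaf1, an assembly factor of the membrane arm, was at 5.12, 4.91 and 6.13 FPKM in vehicle and at 7.59, 6.12 and 9.13 FPKM with nanoparticles. It was 1 of 3 members called higher when nanoparticle library 2 was left out, with a log2 change of 0.55, where 13.3% of all tested genes were higher. On the deposited scale neither gene passed with all 6 libraries, while with read totals Ndufaf7 was lower (log2 change -0.68, limma adjusted p = 0.0173).

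Complex II, succinate dehydrogenase, belongs to both the citric acid cycle and the respiratory chain and has no mitochondrially encoded subunit. None of its 4 genes passed the threshold with all libraries, and 3 were higher without nanoparticle library 1. Sdha, the flavoprotein that oxidises succinate, was at 52.1, 50.04 and 51.4 FPKM in vehicle and at 39.0, 49.7 and 51.3 FPKM with nanoparticles. Library 1 was low and the other libraries lay close to vehicle levels, and the change was -0.14 on the log2 scale (SE 0.133, limma adjusted p = 0.466), or -0.02 without library 1 (adjusted p = 0.759). With read totals it was -0.48 and past the threshold (adjusted p = 0.0207). Sdhb, the iron-sulfur subunit bound to Sdha, was at 38.5, 39.4 and 36.8 FPKM in vehicle and at 26.9, 57.8 and 64.6 FPKM with nanoparticles. The log2 change of Sdhb was 0.28 (SE 0.322, limma adjusted p = 0.554), and 0.66 (adjusted p = 2.3e-04) without library 1. Thus the 2 catalytic subunits had like values in library 1, at 0.762 and 0.702 of vehicle, and unlike ones in libraries 2 and 3, at 0.987 and 1.60 of vehicle. The membrane anchors lay between them in libraries 2 and 3, while in library 1 Sdhc was lower than both, at 0.666 of vehicle, and Sdhd was at 0.734. Sdhc was at 29.9, 30.4 and 31.0 FPKM in vehicle and at 20.3, 32.8 and 39.6 FPKM with nanoparticles. Sdhd was at 105, 103 and 115 FPKM in vehicle and at 79.1, 123 and 141 FPKM with nanoparticles. Their log2 changes were -0.03 and 0.05 with all libraries (limma adjusted p = 0.934 and 0.893) and 0.24 and 0.29 without library 1 (adjusted p = 0.0439 and 0.0174).

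In complex III, 0 of 8 genes passed with all libraries, 7 were higher without nanoparticle library 1 and 7 were crossed. Uqcr10, a small subunit that binds cytochrome c1 and the most abundant of the complex, was at 119, 121 and 112 FPKM in vehicle and at 76.5, 179 and 198 FPKM with nanoparticles. For Uqcr10 the log2 change was 0.25 (SE 0.359, limma adjusted p = 0.640), and 0.68 (adjusted p = 2.0e-04) without library 1. Uqcrfs1, the Rieske iron-sulfur protein that takes electrons from ubiquinol, was the one gene of the complex that was not crossed, and was chosen for that. It was at 71.7, 66.8 and 69.4 FPKM in vehicle and at 78.0, 119 and 127 FPKM with nanoparticles, all above vehicle. Its log2 change was 0.60 (SE 0.199, limma adjusted p = 0.0609), and 0.82 (adjusted p = 5.0e-05) without library 1. The core protein Uqcrc2 varied least within the complex, with 27.4, 28.6 and 27.7 FPKM in vehicle and 26.3, 32.8 and 29.4 FPKM with nanoparticles, and did not pass in either fit.

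In complex IV, cytochrome c oxidase, 1 of 14 tested genes was higher with all libraries and 12 were higher without nanoparticle library 1. Several of its nuclear subunits exist as a widely expressed form and a form of heart, muscle, lung or testis, and in these cells the widely expressed forms held nearly all of the transcript. Cox8a, the most abundant of all members at a vehicle mean of 398 FPKM, was at 392, 428 and 374 FPKM in vehicle and at 291, 549 and 580 FPKM with nanoparticles. On the log2 scale Cox8a differed by 0.19 (SE 0.282, limma adjusted p = 0.654), and 0.50 (adjusted p = 0.0010) without library 1. Cox6a1, the general form of subunit 6a, was at 287, 306 and 286 FPKM in vehicle and at 202, 474 and 519 FPKM with nanoparticles. Cox6b1, Cox7a2 and Cox4i1, the general forms of their subunits, had vehicle means of 211, 90.5 and 202 FPKM and were likewise crossed. They were at 0.669, 0.859 and 0.623 of vehicle in library 1 and at 1.65, 1.92 and 1.70 of vehicle in libraries 2 and 3. Cox7b, a subunit for which no second form is in the table, was at 0.656 and 1.57 of vehicle.

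Cox6a2, the form of heart and skeletal muscle, was above vehicle in nanoparticle library 1, where its general counterpart Cox6a1 was below. In libraries 2 and 3 both genes were above vehicle. Cox6a2 was at 0.443, 0.445 and 0.704 FPKM in vehicle and at 3.60, 2.22 and 1.45 FPKM in nanoparticle libraries 1 to 3. These values rest on 6, 6 and 10 recovered reads and on 40, 25 and 19 reads. All its nanoparticle values lay above all its vehicle values, with library 1 the highest, and the log2 change was 1.12 (SE 0.235, limma adjusted p = 0.0127), or 0.88 (adjusted p = 0.0025) without library 1. Without vehicle library 1 or vehicle library 2 its adjusted p was 0.0545 and 0.0539, and no longer passed. The gene lies at chr7:128205435-128206387, minus strand, and 70 of its 680 exon bases are shared with Itgad on the opposite strand, which was at 0.106 FPKM or below in all libraries. Even in nanoparticle library 1, Cox6a2 stayed far below the 202 FPKM of Cox6a1.

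The other tissue forms were low. Cox6b2, the form of testis, was at 1.63, 1.502 and 1.297 FPKM in vehicle and at 0.276, 1.20 and 1.08 FPKM with nanoparticles. Its groups did not overlap, and it was on 5 reads in nanoparticle library 1 (log2 change -0.46, SE 0.221, limma adjusted p = 0.163, and -0.21 with adjusted p = 0.108 without library 1). Cox7a1, the form of heart and muscle, was at 2.35, 1.51 and 1.79 FPKM in vehicle and at 1.37, 3.84 and 1.36 FPKM with nanoparticles, resting on 12 to 34 reads and with library 2 apart from the other libraries (log2 change 0.07, limma adjusted p = 0.880, and 0.24 with adjusted p = 0.502 without library 1). Cox4i2, a form known from lung and low oxygen, was at 0.527 FPKM or below in all libraries and was not tested. Cox7a2l, a relative of subunit 7a that joins complexes III and IV, was at 92.3, 97.0 and 95.3 FPKM in vehicle and at 84.8, 126 and 161 FPKM with nanoparticles (log2 change 0.34, SE 0.235, limma adjusted p = 0.323, and 0.58 with adjusted p = 0.0028 without library 1).

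In complex V, 0 of 17 genes passed with all libraries, 14 were higher without nanoparticle library 1, and 16 were crossed. Atp5a1, the alpha subunit of the catalytic head and the most abundant of the complex, was at 186, 186 and 186 FPKM in vehicle and at 122, 193 and 189 FPKM with nanoparticles. Libraries 2 and 3 lay just above vehicle, and the log2 change was -0.18 (SE 0.201, limma adjusted p = 0.547) with all libraries and 0.04 (adjusted p = 0.462) without library 1. The beta subunit Atp5b, which holds the catalytic sites, was at 175, 179 and 180 FPKM in vehicle and at 147, 217 and 211 FPKM with nanoparticles. Atp5e, the small epsilon subunit of the central stalk, was at 72.6, 78.9 and 75.1 FPKM in vehicle and at 44.4, 113 and 153 FPKM with nanoparticles. So the fold of libraries 2 and 3 over vehicle ranged from 1.03 for Atp5a1 to 1.77 for Atp5e within the 5 genes of the head and central stalk.

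The c ring, the rotor through which protons pass, is made from 3 genes that encode the same mature protein. These genes were low in nanoparticle library 1 to a like degree, at 0.487 of vehicle for Atp5g1, 0.510 for Atp5g2 and 0.502 for Atp5g3. Atp5g1 was at 13.4, 14.7 and 14.6 FPKM in vehicle and at 6.93, 15.5 and 17.3 FPKM with nanoparticles. Atp5g2 was at 48.5, 49.6 and 46.6 FPKM and at 24.6, 59.0 and 61.5 FPKM. Atp5g3 was at 73.5, 74.5 and 75.0 FPKM and at 37.3, 94.6 and 114 FPKM. In libraries 2 and 3 their folds over vehicle were 1.15, 1.25 and 1.40. Their log2 changes were -0.19, -0.10 and -0.0070 with all libraries (limma adjusted p = 0.687, 0.844 and 0.990). Without library 1 they were 0.19 (adjusted p = 0.0624), 0.31 (adjusted p = 0.0025) and 0.48 (adjusted p = 0.0025). The median fold in library 1 was 0.730 for the head and central stalk, 0.693 for the 4 genes of the peripheral stalk, 0.620 for the 4 small membrane subunits and 0.502 for the c ring, groups formed after the values were seen. Of the small membrane subunits, which help the enzyme form dimers, Atp5k was at 49.3, 50.7 and 55.0 FPKM in vehicle and at 33.8, 73.8 and 92.8 FPKM with nanoparticles. Atp5j2 was at 36.4, 38.3 and 34.2 FPKM and at 21.3, 50.2 and 57.8 FPKM. Atp5s, the one member not crossed here, was at 1.21, 1.53 and 1.74 FPKM in vehicle and at 1.23, 1.13 and 1.40 FPKM with nanoparticles.

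The 18 members not called without nanoparticle library 1 included Ndufs1, Ndufs8, Sdha, Uqcrc2 and Atp5a1, which are large catalytic or core proteins, besides 6 of the 8 assembly factors. In nanoparticle libraries 2 and 3 the difference from vehicle tended to fall as exon length rose. In library 1 the members had no such trend. The median over nanoparticle libraries 2 and 3 was 0.67 for the 22 members with under 1 kilobase of exon, 0.63 for 34 members of 1 to 2 kilobases, 0.32 for 22 of 2 to 4 kilobases and 0.31 for 10 of 4 kilobases or more. Over all tested genes the same medians were 0.36, 0.36, 0.14 and -0.16, so that the members lay above all genes in each class. In library 1 the members' medians were -0.57, -0.47, -0.51 and -0.52, against -0.21, -0.13, -0.07 and 0.02 for all genes. Across genes, which are not independent, Spearman's rho of exon length with the mean difference of libraries 2 and 3 was -0.44 over 88 members and -0.35 over 10680 genes, and it was -0.0021 over the members for library 1. The part of length in the result was not tested.

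**Figure D5:**
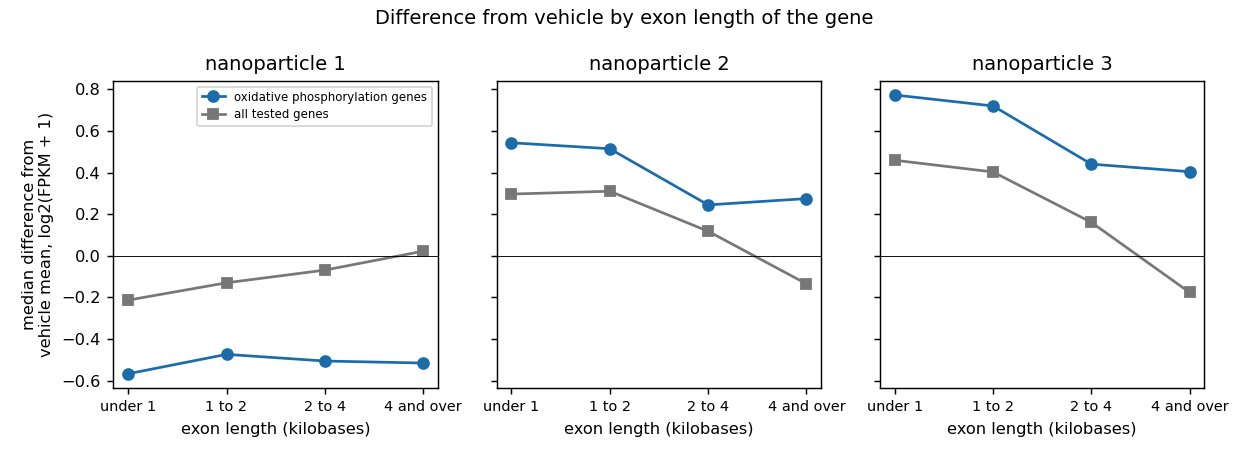
Median difference from the vehicle mean in log2(FPKM + 1) by exon length of the gene in kilobases, for the oxidative phosphorylation genes (circles) and all tested genes (squares) in each nanoparticle library. The members lie below all genes in library 1 and above them in libraries 2 and 3 in every length class, from -0.57 to -0.47 in library 1.

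The mitochondrially encoded subunits are partners of the nuclear ones in complexes I, III, IV and V. On the deposited scale they summed to a level within the vehicle range in nanoparticle library 1, although some of them were low there. Their 13 genes summed to 17167, 15532 and 15910 FPKM in vehicle and to 17159, 20064 and 19735 FPKM in nanoparticle libraries 1 to 3, which is 1.06, 1.24 and 1.22 times the vehicle mean. The nuclear subunits stood at 0.700, 1.40 and 1.62 times theirs. As a share of recovered reads, mitochondrial protein-coding genes held 2.42%, 2.22% and 2.28% in the vehicle libraries. That share was 2.01%, 2.13% and 1.97% in nanoparticle libraries 1 to 3, each below every vehicle library. The mitochondrial sum in FPKM rests on the 7 most abundant transcripts, with vehicle means of 940 to 6252 FPKM, which were at 0.913 to 1.19 of vehicle in library 1. Of the other genes, mt-Co3, mt-Co2, mt-Nd3, mt-Nd4l and mt-Atp6, at vehicle means of 82.0 FPKM or less, were at 0.617, 0.737, 0.745, 0.772 and 0.774 of vehicle in library 1, about as low as the nuclear subunits. None of the 12 tested mitochondrial genes passed with all libraries. Without library 1, 4 were higher (34.3% of all tested genes were) and 1 lower (30.5%), and 2 were crossed (10.8%). Copies of mitochondrial genes in the nuclear genome make single levels uncertain. The highest, mt-Co1, the catalytic subunit of complex IV, was at 6691, 5949 and 6117 FPKM in vehicle and at 7144, 6868 and 5992 FPKM with nanoparticles.

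Genes that assemble or feed the chain were taken from lists, and their counts with all libraries stand beside 17.0% of all tested genes higher and 16.2% lower, and those without nanoparticle library 1 beside 34.3% and 30.5%. Of 10 tested complex I assembly genes outside the Ndufaf names, 2 were higher and 1 lower with all libraries, and 5 higher and 2 lower without library 1. Of 17 complex IV assembly genes, 4 were higher and 1 lower with all libraries, and 11 higher and 1 lower without library 1. Of 5 complex III assembly genes, 1 was higher and then 3, of 3 for complex II 1 was higher in either fit, and of 4 for complex V 0 passed and then 2 were higher. Of 3 genes tied to supercomplexes, 1 was higher with all libraries (Higd1a) and 3 without library 1. Coa5, which acts in complex IV assembly, was at 31.4, 30.5 and 32.7 FPKM in vehicle and at 52.6, 44.9 and 45.5 FPKM with nanoparticles (log2 change 0.58, SE 0.108, limma adjusted p = 0.0082, and 0.50 without library 1). With read totals its change was 0.24 and did not pass (adjusted p = 0.135), and without vehicle library 2 its adjusted p was 0.0537. Lyrm2, a small protein tied to complex I assembly, was at 5.55, 6.11 and 3.99 FPKM in vehicle and at 9.72, 10.2 and 9.29 FPKM with nanoparticles (log2 change 0.81, SE 0.150, limma adjusted p = 0.0081, and 0.81 without library 1). In Coa5 and Lyrm2 nanoparticle library 1 lay above vehicle along with libraries 2 and 3. With all libraries, Acad9 was the lower gene of the complex I list (log2 change -0.47, limma adjusted p = 0.0105, and -0.43 without library 1). Lrpprc was the lower gene of the complex IV list (log2 change -0.51, limma adjusted p = 0.0126, and -0.43 without library 1). In both, every nanoparticle value lay below every vehicle value.

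Of 16 tested electron carriers and entry enzymes, 4 were higher with all libraries (17.0% of all tested genes) and 0 lower (16.2%), and 7 were higher (34.3%) and 0 lower (30.5%) without nanoparticle library 1. Cycs, cytochrome c itself, was at 21.6, 22.5 and 20.6 FPKM in vehicle and at 33.4, 41.7 and 46.0 FPKM with nanoparticles, without overlap. Its log2 change was 0.86 (SE 0.140, limma adjusted p = 0.0047), and 0.99 without library 1, so the carrier between complexes III and IV was higher in library 1, where most of the subunits on either side of it were lower. Gpd2, the mitochondrial glycerol phosphate dehydrogenase that feeds ubiquinone, was at 7.89, 7.86 and 7.89 FPKM in vehicle and at 12.7, 13.4 and 11.0 FPKM with nanoparticles (log2 change 0.59, SE 0.104, limma adjusted p = 0.0068, and 0.57 without library 1). With read totals the change of Gpd2 was 0.27 and did not pass (adjusted p = 0.0893). Of 7 carriers and channels of the mitochondrial membranes, 1 was higher (Vdac3) and 1 lower, against 4 higher and 1 lower without library 1. The lower one, Ucp2, a carrier of the uncoupling protein family, was at 167, 154 and 156 FPKM in vehicle and at 33.3, 78.1 and 78.7 FPKM with nanoparticles. Its log2 change was -1.41 (SE 0.336, limma adjusted p = 0.0201), and -1.01 without library 1 (adjusted p = 1.9e-05). Leaving out any 1 vehicle library gave an adjusted p of 0.0671 to 0.0747.

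Of 12 tested regulators of mitochondrial genes, 1 was higher with all libraries (17.0% of all tested genes) and 3 lower (16.2%), and 2 were higher (34.3%) and 5 lower (30.5%) without nanoparticle library 1. Myc, a transcription factor that promotes mitochondrial biogenesis among its many targets, was at 16.8, 16.0 and 15.3 FPKM in vehicle and at 2.16, 4.69 and 5.58 FPKM with nanoparticles (log2 change -1.79, SE 0.271, limma adjusted p = 0.0036, and -1.48 without library 1). Ppargc1b, a coactivator of these genes, was at 2.69, 2.52 and 2.46 FPKM and at 1.34, 1.21 and 1.48 FPKM (log2 change -0.60, SE 0.095, limma adjusted p = 0.0043, and -0.60 without library 1). Gabpb1, the beta chain of the GA-binding protein, was higher, at 1.90, 1.69 and 2.09 FPKM in vehicle and 3.62, 3.45 and 3.26 FPKM with nanoparticles (log2 change 0.62, SE 0.099, limma adjusted p = 0.0045, and 0.59 without library 1). Its DNA-binding partner Gabpa was at 5.83, 6.14 and 6.72 FPKM and at 5.40, 5.29 and 5.91 FPKM, and did not pass (log2 change -0.15, limma adjusted p = 0.301). Nrf1 was at 1.77, 1.86 and 1.57 FPKM and at 1.65, 1.65 and 1.63 FPKM, within the vehicle range in all nanoparticle libraries. No regulator on the list was crossed, where 10.8% of all tested genes were.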

How the data were processed

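Groups and replicate numbers come from the titles and treatment labels of 6 mouse RNA-seq libraries. The authors deposited 2 identical tables of FPKM, a unit inferred here from the values. Per the submitters' processing notes, the tools were CASAVA, STAR 2.5, HTSeq, edgeR 3.16.5 and DESeq2 2, and the builds hg19 and mm10, with no role given. Multiplying FPKM by merged exon length (GENCODE M21, GRCm38) and 1 scale per library gave whole reads (within 0.01) for 95.8% to 96.1% of values above 0. These reads carry no molecular identifiers, so they do not count independent molecules. The strand setting is not given in the sources used here, and 29 of the 92 members share exon bases with another gene in the table. No column was left unmapped (0). The values of 1 member are not reported here.

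The 10682 genes that reached 1 FPKM in 3 or more libraries were fitted as log2(FPKM + 1), which understates changes of low genes, with limma 3.58.1 in R 4.3.3 (lmFit, eBayes with trend, prior 2.33 degrees of freedom, two-sided, Benjamini-Hochberg, threshold 0.05). The fit was tested on simulated data. Python 3.11.15, pandas 2.3.3, numpy 2.4.6 and matplotlib 3.10.9 were used for the rest. The members and lists were chosen with earlier results of these data known. Named members were, per complex, up to 3 called increases and decreases, the most abundant gene, all of complex II and the isoform sets. For lists, up to 2 called genes per direction qualified. Replicates were compared by chi-square of recovered reads, scaled by its degrees of freedom: 2.88 to 5.60 for vehicle pairs, 12.7 for nanoparticle pair 2 and 3, 199 for pair 1 and 2, and 266 for pair 1 and 3, so no library was a duplicate. Alternatives were another pseudocount, other filters, scaling to read totals, quantile normalization, no trend, the replicate block and leaving out each library.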

Additional observations from a re-analysis of the deposited data

How the results depend on the processing

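The count of members higher was 2, and 1 to 70 when each library was left out in turn; it was 1 with a filter of 5 FPKM, which removes Cox6a2, and 42 with read totals and without nanoparticle library 1, an alternative chosen after seeing the data. With quantile normalization the members higher were Cox6a2, Ndufb4c and Ndufaf6 (log2 changes 1.26, 0.935 and 0.616). The count of members lower was 0, and 0 to 1 over the left-out libraries. It was 5 with read totals (33.8% of all tested genes were lower) and 9 with read totals and without nanoparticle library 1 (51.1%). With quantile normalization it was 4 (Atp5a1, Atp5b, Sdha and Sdhd). No share of all tested genes is given for quantile normalization, so its counts cannot be read as many or few. The members' median log2 change of 0.19 became -0.15 with read totals and -0.20 with quantile normalization, and ran from -0.035 without nanoparticle library 3 to 0.56 without nanoparticle library 1. Relative to all tested genes it was 0.13 with read totals and -0.14 with quantile normalization. The causes were not tested. Over all genes 3550 passed, 2141 to 6923 with a library left out and 7422 with read totals and without nanoparticle library 1. Of the named genes, the changes of Atp5g2, Atp5g3 and Sdhc turned to 0.31, 0.48 and 0.24 without nanoparticle library 1 (their lowest values with a library left out were -0.33, -0.32 and -0.23, without nanoparticle library 3), and that of Sdhd to -0.45 with quantile normalization. In all, 16 members changed from below to above 0 without nanoparticle library 1, of which 8 passed the threshold there. Among those that did not pass were Atp5g1 (-0.19 to 0.19), Ndufaf8 (-0.16 to 0.24) and Atp5a1 (-0.18 to 0.04). Same-numbered libraries deviated together at correlations of 0.065, 0.113 and -0.058. These values gave no sign of pairing, but with 3 libraries per group they cannot exclude it. With the replicate block 2 members were higher, 0 lower and 2785 genes passed in all, with the median at 0.19. A pseudocount of 0.1, no filter, no trend and the structural subunits alone gave 2 higher and 0 lower. Depth limits Cox6a2, Cox7a1, Cox6b2 and Ndufb4c most, at 5 to 53 reads.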
